A study of Mus musculus with 8 samples.

Results

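The genes described here are 10 genes of hepcidin production and iron handling, chosen by symbol from a table of 54532 genes measured by RNA-seq in mouse liver. They are the hepcidin genes Hamp and Hamp2, the transferrin gene Trf, the transferrin receptor genes Tfrc and Tfr2, the receptor partner Hfe, the ferritin genes Fth1 and Ftl1, and the iron transporter genes Slc40a1 and Slc11a2. Livers came from 4 METTL3-HKD mice, which carry the METTL3 flox/- genotype with Alb-iCre, and from 4 METTL3-Flox mice, which carry METTL3 flox/flox without the Cre. METTL3 is the catalytic subunit of the enzyme that writes N6-methyladenosine on RNA, and the paper describes its knockdown by albumin-iCre as hepatocyte-specific. All 8 mice underwent 1 h of partial warm ischemia followed by 6 h of reperfusion. METTL3-HKD mice were heterozygous, and their age and sex are not given in the labels. Sham-operated livers were not analysed here, so every difference below is between genotypes after the injury.

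Iron leaves cells through ferroportin, the protein of Slc40a1, and hepcidin, a peptide hormone made mostly by hepatocytes, binds ferroportin and has it taken inside and degraded. Hepatocytes raise Hamp transcription when bone morphogenetic proteins from sinusoidal endothelial cells act on receptors that work with hemojuvelin, TFR2 and HFE, and also when interleukin 6 activates STAT3. Iron inside the cell is stored in ferritin, a shell of heavy chains (Fth1) and light chains (Ftl1), and the translation of both chains is held back by iron regulatory proteins when iron is scarce. In bulk liver RNA, fewer cells of a type and less RNA per cell cannot be told apart.

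Each library held 15861245 to 18434488 reads on genes. Values are FPKM, which set reads against gene length and library size, and a difference is METTL3-HKD minus METTL3-Flox on the log2(FPKM + 0.1) scale with its standard error (SE). A gene was called when the adjusted p of limma was under 0.05 over the 16645 genes whose mean reached 0.1 FPKM. Mettl3 itself lay at 1.33 ± 0.18 FPKM in METTL3-HKD mice and 1.499 ± 0.28 FPKM in METTL3-Flox mice (SD, n = 4), which did not pass the test (adjusted p = 0.556). The paper reports reduced METTL3 expression in the liver of METTL3-HKD mice. The floxed stretch is exon 4, which FPKM over the whole gene does not single out.

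Among the 10 iron genes, 1 was upregulated and 3 were downregulated in METTL3-HKD mice. Of all genes tested, 9.05% were called higher and 6.63% lower. The livers of the 2 genotypes did not overlap for 5 of the 10 genes, 2 with METTL3-HKD above and 3 with METTL3-HKD below, where 12.7% and 9.95% of all genes did so. The upregulated gene was Hamp2, and the downregulated genes were Tfr2, Hfe and Slc40a1. The median difference of the 10 genes was -0.09, against -0.00 over all genes tested. With libraries scaled to their reads on genes in place of the deposited scaling, 2309 genes were called higher and 374 lower, against 1506 and 1104.

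**Figure D1:**
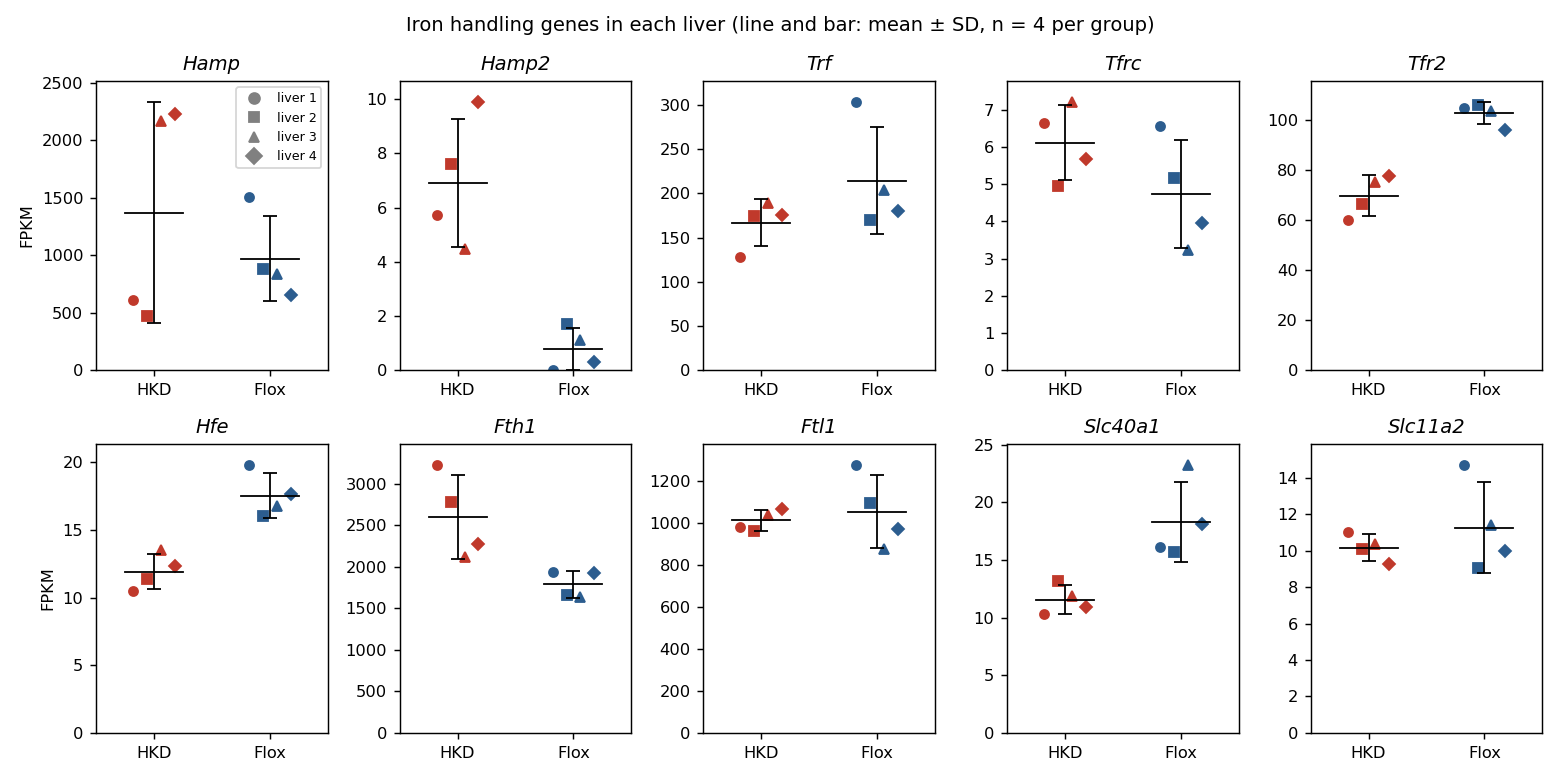
FPKM of the 10 iron genes in each liver, with 1 panel per gene and an axis that starts at 0. Red points are the 4 METTL3-HKD livers, blue points the 4 METTL3-Flox livers, the marker shape gives the liver number, and the line with its bar is the mean ± SD. Hamp2 and Fth1 have every METTL3-HKD liver above every METTL3-Flox liver, Tfr2, Hfe and Slc40a1 have every METTL3-HKD liver below, and the other 5 genes overlap.

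Hamp, which encodes the hepcidin that acts on iron, was among the most abundant of the 10 genes and varied widely between livers. It measured 609, 473, 2164 and 2229.9 FPKM in METTL3-HKD mice 1 to 4, and 1501, 878, 837 and 653 FPKM in METTL3-Flox mice 1 to 4. METTL3-HKD livers 3 and 4 were above every other liver, METTL3-HKD livers 1 and 2 were below every other liver, and the METTL3-Flox livers all lay in between. The difference was 0.24 (SE 0.54, 95% interval -0.98 to 1.45, adjusted p = 0.799), and the exact two-sided permutation test of the means gave p = 0.429. Its sign turned to -0.09 without METTL3-HKD liver 3 and to -0.11 without METTL3-HKD liver 4. The interval spans both a fall and a rise of Hamp by nearly 1 log2 unit or more, so that 4 livers a group could not resolve its direction. The SD of Hamp was 958 FPKM among METTL3-HKD livers and 369 FPKM among METTL3-Flox livers.

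Hamp2, the second hepcidin gene of the mouse, whose part in iron balance is less clear, was upregulated from a low level. It measured 5.71, 7.61, 4.46 and 9.88 FPKM in METTL3-HKD mice 1 to 4, from 67, 82, 47 and 107 reads. In METTL3-Flox livers it measured 0, 1.70, 1.13 and 0.320 FPKM, from 0, 16, 10 and 3 reads. Every METTL3-HKD liver was above every METTL3-Flox liver, and the 0 of METTL3-Flox liver 1 allows up to 3 reads, or 0.362 FPKM, by counting error alone. The means differed 8.79-fold, and the fitted difference was 3.61 (SE 0.79, adjusted p = 0.0201, exact permutation p = 0.0286, the smallest that 4 against 4 livers allow). The difference was 2.79 without METTL3-Flox liver 1, the liver with 0 reads, and 2.21 with a pseudocount of 1 FPKM. Without METTL3-Flox liver 4, the adjusted p rose to 0.0518.

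On chromosome 7 of GRCm38, both hepcidin genes read from the minus strand, Hamp from 30942368 to 30944032 and Hamp2 from 30922372 to 30924681. Their first-numbered coding sequences matched at 93.6% of 249 aligned positions, and 16.6% of the 50-base stretches of the Hamp transcript also occur in Hamp2, so that some reads could fall to either gene. Hamp2 made up 0.929, 1.58, 0.206 and 0.441% of the summed Hamp and Hamp2 FPKM in METTL3-HKD mice 1 to 4, and 0, 0.193, 0.135 and 0.0489% in METTL3-Flox mice 1 to 4. The share was not constant from liver to liver, and the lowest METTL3-HKD share was above the highest METTL3-Flox share. The liver with the highest Hamp2 share, METTL3-HKD liver 2, had the lowest Hamp of all 8. Hamp makes up nearly all of the sum, so a low Hamp raises the share by itself. Hamp2 FPKM was highest in METTL3-HKD liver 4, at 9.88 FPKM, against 7.61 FPKM in METTL3-HKD liver 2.

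The promoters of the pair are shown because Hamp2 was called and Hamp was not, while their upstream sequences are closely similar. The lines give 120 bases from RefSeq (GRCm38.p6), from 150 to 31 bases before each RefSeq start, read 5′ to 3′ on the minus strand. They lie at chr7:30944060-30944179 for Hamp and chr7:30924212-30924331 for Hamp2. The RefSeq start is 30944029 for Hamp and 30924181 for Hamp2. The gene span of Hamp2 given above reaches to 30924681, so its stretch lies before the RefSeq start but inside that span. Capitals mark matches on either strand to GGCGCC, a bone morphogenetic protein responsive element, to TTCNNNGAA, a STAT site, and to TGAGTCA, an AP-1 site, none of which overlap.
Hamp: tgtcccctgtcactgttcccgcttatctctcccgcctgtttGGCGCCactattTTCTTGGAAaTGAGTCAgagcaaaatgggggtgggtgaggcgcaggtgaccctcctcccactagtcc
Hamp2: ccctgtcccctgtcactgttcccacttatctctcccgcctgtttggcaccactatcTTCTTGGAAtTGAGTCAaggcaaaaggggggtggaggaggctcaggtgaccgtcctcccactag

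Over the 150 bases before the start, the 2 promoters matched at 88.2% of 153 aligned columns. The STAT match TTCTTGGAA stood in both, 97 to 89 bases before the start of Hamp and 94 to 86 bases before that of Hamp2, and the AP-1 match TGAGTCA followed it in both. GGCGCC stood 109 to 104 bases before the Hamp start, and the aligned stretch of Hamp2 differed by G4A, counted from 1 at the 5′ end of the motif with the base of Hamp first. Of 32851 mouse promoters of the same length, 7.01% held GGCGCC, 4.09% held TTCNNNGAA and 2.84% held TGAGTCA. Of the 7 iron genes with a promoter in the table, Tfrc also held GGCGCC and Hfe held an AP-1 match. ACGTG, the core of the hypoxia response element, was found in 11.2% of all promoters and, among the 7, in Tfr2. These are matches of letters, and binding was not measured.

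Tfr2 and Hfe, whose proteins sit together at the hepatocyte surface and report transferrin-bound iron to the hepcidin pathway, both fell. Tfr2 measured 60.2, 66.4, 75.0 and 77.7 FPKM in METTL3-HKD mice 1 to 4 and 105, 106, 104 and 96.2 FPKM in METTL3-Flox mice 1 to 4. Every METTL3-HKD liver was below every METTL3-Flox liver, with means of 69.8 ± 8.05 and 102.6 ± 4.40 FPKM (SD, n = 4). The Tfr2 difference was -0.56 (SE 0.10, adjusted p = 0.0111, exact permutation p = 0.0286).

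Hfe, an MHC class I-like protein, measured 10.5, 11.4, 13.5 and 12.3 FPKM in METTL3-HKD mice 1 to 4 and 19.8, 16.01, 16.8 and 17.6 FPKM in METTL3-Flox mice 1 to 4. The groups did not overlap, and the Hfe difference was -0.55 (SE 0.11, adjusted p = 0.0131, exact permutation p = 0.0286). Tfr2 and Hfe fell by a like size, and the ratio of their FPKM was 5.85 ± 0.32 in METTL3-HKD livers and 5.89 ± 0.63 in METTL3-Flox livers (SD, n = 4), with ranges that overlapped. Both calls held in all 16 alternatives. Across those, the Tfr2 difference lay between -0.62 and -0.35 and that of Hfe between -0.62 and -0.34. Beside these falls, 8 hepatocyte marker genes had a median difference of -0.41 with 2 called lower, and their summed level was 21210 to 31193 FPKM in METTL3-HKD livers and 27446 to 30817 FPKM in METTL3-Flox livers, with no marker at 0. The part of hepatocyte RNA content in the falls of Tfr2 and Hfe was not tested.

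The transferrin uptake route did not pass the test. Tfrc, the receptor that takes iron-loaded transferrin into most cells, measured 6.65, 4.95, 7.20 and 5.68 FPKM in METTL3-HKD mice 1 to 4 and 6.56, 5.15, 3.24 and 3.97 FPKM in METTL3-Flox mice 1 to 4. METTL3-Flox livers 3 and 4 were the lowest, while METTL3-Flox livers 1 and 2 lay within the METTL3-HKD range. The Tfrc difference was 0.40 (SE 0.21, 95% interval -0.09 to 0.88, adjusted p = 0.234). The ratio of Tfr2 to Tfrc FPKM ranged from 9.05 to 13.7 in METTL3-HKD livers and from 15.9 to 31.9 in METTL3-Flox livers, without overlap.

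Trf, the plasma iron carrier secreted by hepatocytes, measured 128, 174, 189 and 175 FPKM in METTL3-HKD mice 1 to 4 and 303, 170, 204 and 180 FPKM in METTL3-Flox mice 1 to 4. The lowest value was in METTL3-HKD liver 1 and the highest in METTL3-Flox liver 1, and the other 6 livers lay between 170 and 204 FPKM. The Trf difference was -0.34 (SE 0.20, 95% interval -0.79 to 0.11, adjusted p = 0.275). An annotated transcript on the same strand, Gm20425, shares 63.5% of the exon bases of Trf and is listed at 0 FPKM.

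**Figure D2:**
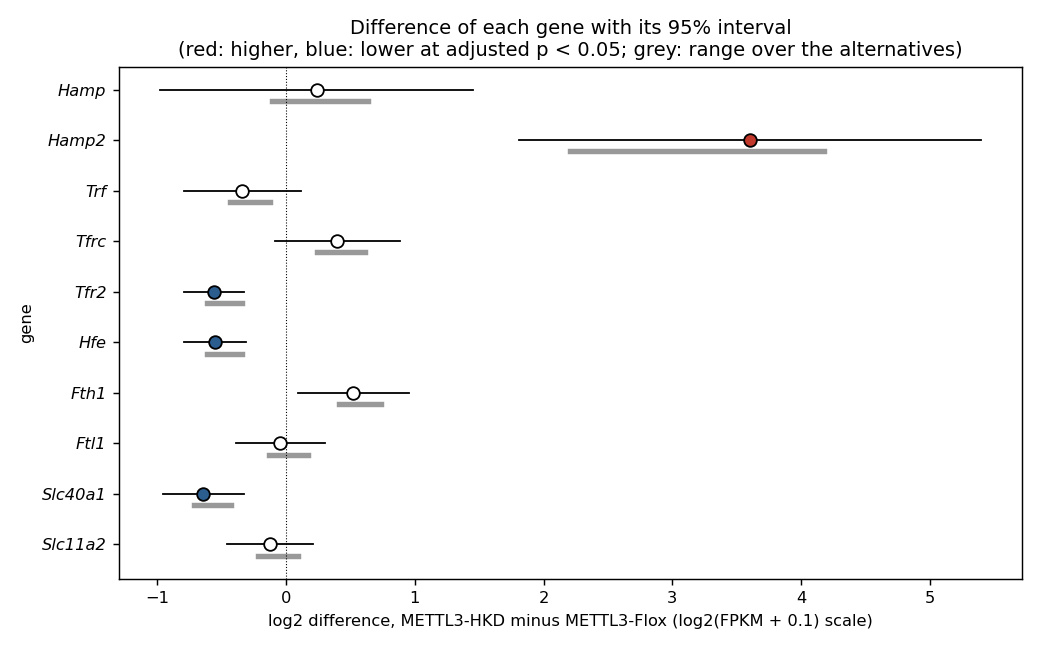
Difference between METTL3-HKD and METTL3-Flox livers for the 10 iron genes on the log2(FPKM + 0.1) scale, with the black line giving the 95% interval and the grey line the range over 16 alternative analyses. Red marks a gene called higher, blue a gene called lower and white a gene not called. Hamp2 stands at 3.61, Tfr2, Hfe and Slc40a1 lie between -0.64 and -0.55 with intervals that leave out 0, and the interval of Hamp reaches from -0.98 to 1.45.

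The heavy ferritin chain gene Fth1 was the most abundant of the 10 genes and was higher in every METTL3-HKD liver, without passing the test across genes. It measured 3223, 2775, 2114 and 2278 FPKM in METTL3-HKD mice 1 to 4 and 1932, 1655, 1639 and 1929.6 FPKM in METTL3-Flox mice 1 to 4. The lowest METTL3-HKD liver, 3, exceeded the highest METTL3-Flox liver, 1, and METTL3-HKD livers 1 and 2 stood furthest above. The Fth1 difference was 0.52 (SE 0.19, 95% interval 0.09 to 0.95, adjusted p = 0.0943, exact permutation p = 0.0286). With voom on reads rebuilt from the FPKM, the adjusted p was 0.0424. With libraries scaled to their reads on genes, which moved the median of all genes to 0.20, the Fth1 difference was 0.74 and the adjusted p 0.0347. In the other 14 of 16 alternatives Fth1 was not called, with an adjusted p of up to 0.327. The interval included 0 with no minimum level, with the replicate block, and without METTL3-HKD liver 2, METTL3-Flox liver 2 or METTL3-Flox liver 3.

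Ftl1, the light chain gene, measured 983, 961, 1038 and 1068 FPKM in METTL3-HKD mice 1 to 4 and 1276, 1097, 875 and 970 FPKM in METTL3-Flox mice 1 to 4. The METTL3-HKD values all fell inside the METTL3-Flox range. The Ftl1 difference was -0.05 (SE 0.15, 95% interval -0.39 to 0.30, adjusted p = 0.872), and its sign turned with the reads-on-genes scaling (0.17), with array quality weights (0.036) and without METTL3-Flox liver 1 (0.051). The ratio of Fth1 to Ftl1 FPKM was 2.58 ± 0.60 in METTL3-HKD livers and 1.72 ± 0.25 in METTL3-Flox livers (SD, n = 4). The lowest ratio among METTL3-HKD livers, 2.04, was above the highest among METTL3-Flox livers, 1.99. Ftl1 shares 73.4% of its 50-base stretches with Ftl1-ps1, listed at a mean of 25.4 FPKM, so its value is uncertain by what counting assigned to such copies, and Gm10252 overlaps 26.5% of its exon bases on the opposite strand at 0.153 FPKM. Fth1 shared 4.01% of its stretches with a pseudogene listed at 0 FPKM.

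Markers of blood cells moved with the same groups. Of 8 neutrophil markers 7 were called higher, with a summed level of 330 to 1615 FPKM in METTL3-HKD livers and 12.9 to 44.5 FPKM in METTL3-Flox livers, and Ly6g and Camp were at 0 in some livers. Of 8 erythroid markers 5 were tested and 4 were called higher, with a summed level of 162 to 587 FPKM against 27.2 to 70.2 FPKM, and Slc4a1 and Ermap were at 0 in some livers. METTL3-HKD liver 1 had the highest sum of both lists and the highest Fth1. The part of these cells in the higher Fth1 and Hamp2 was not tested.

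Slc40a1, the gene of ferroportin, was downregulated. It measured 10.3, 13.2, 11.9 and 10.9 FPKM in METTL3-HKD mice 1 to 4 and 16.1, 15.7, 23.2 and 18.1 FPKM in METTL3-Flox mice 1 to 4. Every METTL3-HKD liver was below every METTL3-Flox liver, and METTL3-Flox liver 3 stood highest. The means were 11.6 ± 1.25 and 18.3 ± 3.46 FPKM (SD, n = 4), and the Slc40a1 difference was -0.64 (SE 0.14, adjusted p = 0.0188, exact permutation p = 0.0286). The adjusted p was 0.0531 without METTL3-HKD liver 1 and 0.114 with libraries scaled to their reads on genes, where the difference was -0.43. Ferroportin is made by hepatocytes and, at a high level, by Kupffer cells. Of 8 Kupffer cell markers 5 were called lower, with a summed level of 89.9 to 187 FPKM in METTL3-HKD livers and 186 to 464 FPKM in METTL3-Flox livers and no marker at 0. Their part in the fall of Slc40a1 was not tested.

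Slc11a2, which encodes the divalent metal transporter DMT1 that moves iron out of endosomes, measured 11.001, 10.1, 10.3 and 9.26 FPKM in METTL3-HKD mice 1 to 4 and 14.7, 9.03, 11.4 and 9.95 FPKM in METTL3-Flox mice 1 to 4. All METTL3-HKD livers lay inside the METTL3-Flox range. The Slc11a2 difference was -0.12 (SE 0.15, 95% interval -0.46 to 0.21, adjusted p = 0.599), and its sign turned with the reads-on-genes scaling (0.089) and without METTL3-Flox liver 1 (0.0098).

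**Figure D3:**
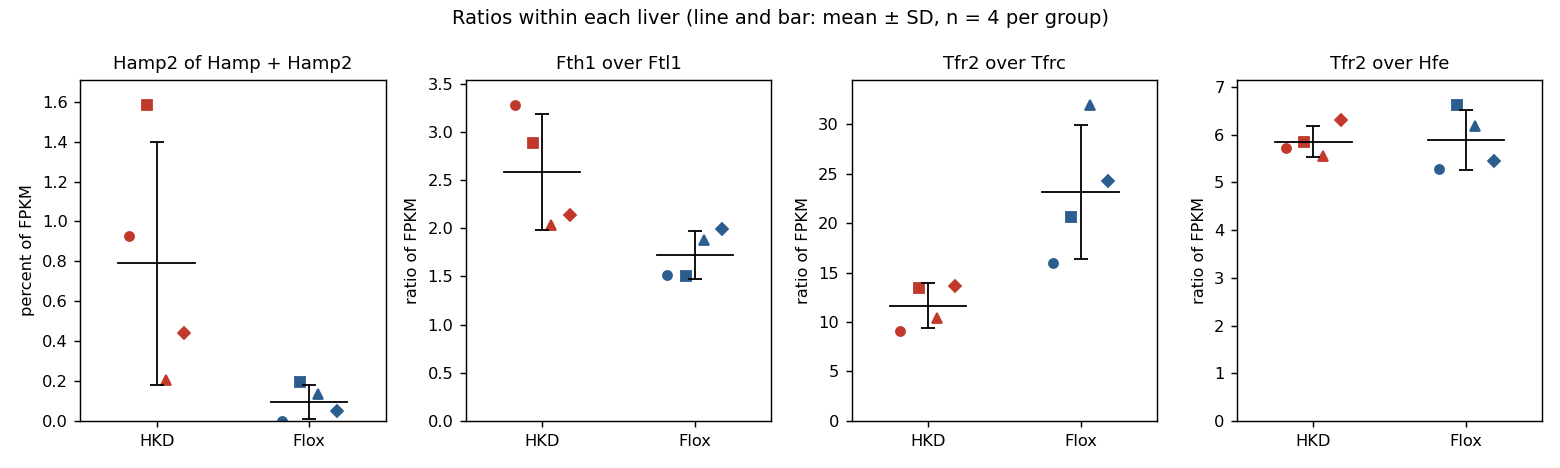
Ratios of FPKM within each liver, with the share of Hamp2 in percent on the left and 3 plain ratios to its right, all on axes that start at 0. Red points are METTL3-HKD livers, blue points METTL3-Flox livers, and the line with its bar is the mean ± SD of 4 livers. The Hamp2 share and Fth1 over Ftl1 lie higher in METTL3-HKD livers and Tfr2 over Tfrc lies lower, each without overlap, whereas Tfr2 over Hfe has means of 5.85 and 5.89.

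Iron regulatory proteins act on ferritin, ferroportin and transferrin receptor mRNAs through a stem-loop, the iron-responsive element, and the stem-loops of the iron genes are shown because these mRNAs share this control. In a 5′ UTR the element lets the proteins block translation, and in the 3′ UTR of Tfrc it protects the mRNA. The pattern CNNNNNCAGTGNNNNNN, searched on the sense strand of GENCODE M21 coding transcripts with the 5 bases on each side of the loop able to pair, occurred in the UTRs of 0.731% of 21901 protein-coding genes. It occurred in 4 of the 10 iron genes. The pattern needs all 5 pairs without a bulge, so an iron gene without a match may still hold an element. The lines give 27 bases each, 5′ to 3′, with the loop in capitals.
Fth1: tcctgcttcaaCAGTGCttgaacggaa
Ftl1: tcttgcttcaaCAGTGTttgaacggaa
Slc40a1: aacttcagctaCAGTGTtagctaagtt
Tfrc: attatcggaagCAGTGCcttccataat

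The element of Fth1 lies at chr19:9982733-9982759 on the plus strand and that of Ftl1 at chr7:45459780-45459806 on the minus strand, both in the 5′ UTR of their first-numbered transcripts on GRCm38. The element of Slc40a1 lies in the 5′ UTR at chr1:45925466-45925492 on the minus strand. Tfrc held 4 matches in its 3′ UTR, of which the line shows that at chr16:32631220-32631246 on the plus strand. Of these 4 mRNAs, Slc40a1 was called lower (-0.64), and Fth1 (0.52), Tfrc (0.40) and Ftl1 (-0.05) were not called. Translation and protein were not measured by RNA-seq.

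In order of mean level over the 8 livers, the genes ran from Fth1 at 2193 FPKM through Hamp (1168), Ftl1 (1034), Trf (190.5), Tfr2 (86.2), Slc40a1 (14.9), Hfe (14.7), Slc11a2 (10.7) and Tfrc (5.43) to Hamp2 (3.85). Hamp and Ftl1 overlapped in both groups, as did Slc40a1 and Hfe. Fth1 and Hamp, Slc40a1 and Slc11a2, Hfe and Slc11a2, and Tfrc and Hamp2 overlapped in METTL3-HKD livers and were apart in METTL3-Flox livers. The other neighbours in this order were apart in both groups. By group means, Ftl1 (1054.5 FPKM) stood above Hamp (967 FPKM) in METTL3-Flox livers, and Hamp2 (6.92 FPKM) above Tfrc (6.12 FPKM) and Hfe (11.9 FPKM) above Slc40a1 (11.6 FPKM) in METTL3-HKD livers, and each of these pairs overlapped there.

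How the genes varied with Hamp from liver to liver was described by Pearson's r on log2(FPKM + 0.1) after each group's mean was taken away, over the 8 livers. Tfr2 had r = 0.849 with Hamp and Hfe had r = 0.765, followed by Trf (0.582), Ftl1 (0.558), Tfrc (0.471) and Slc11a2 (0.149). Slc40a1 (-0.245), Hamp2 (-0.248) and Fth1 (-0.691) ran the other way. Within METTL3-HKD mice, livers 3 and 4, which were high in Hamp, were also the highest in Tfr2 and Hfe and the lowest in Fth1. The 5 genes most like Hamp among 10693 genes of at least 1 FPKM were Mat1a (r = 0.975), the S-adenosylmethionine synthetase of hepatocytes, Oma1 (0.972), Elp4 (0.970), Gstp1 (0.969) and Pdia5 (0.967). Mat1a measured 859.6, 713, 1431 and 1319 FPKM in METTL3-HKD mice 1 to 4 and 1573, 1261, 1123 and 1179.5 FPKM in METTL3-Flox mice 1 to 4, which puts METTL3-HKD livers 1 and 2 at the bottom as for Hamp. The 8 hepatocyte markers ranged from -0.193 (Apob) through 0.571 (Cps1) to 0.911 (F2). Between Cps1 and F2 lay Serpinc1 (0.780), Apoa1 (0.805), Ttr (0.826), Asgr1 (0.83) and Alb (0.871). Most hepatocyte markers thus had values like those of Hfe and Tfr2. The points share their libraries and the composition of the tissue.

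Beyond the 10 genes, 109 further genes of iron and heme biology were drawn up in 7 lists, and 102 of them were tested. Of these, 15 were called higher and 13 lower, where 9.05% and 6.63% of all genes tested were, and their median difference was -0.11. The number called higher fell to 9 without METTL3-HKD liver 1, without METTL3-HKD liver 2 or without METTL3-Flox liver 3. The number called lower fell to 6 without METTL3-HKD liver 1, to 5 without METTL3-HKD liver 2, to 4 without METTL3-Flox liver 3 and to 7 without METTL3-Flox liver 4, and to 6 with the reads-on-genes scaling.

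**Figure D4:**
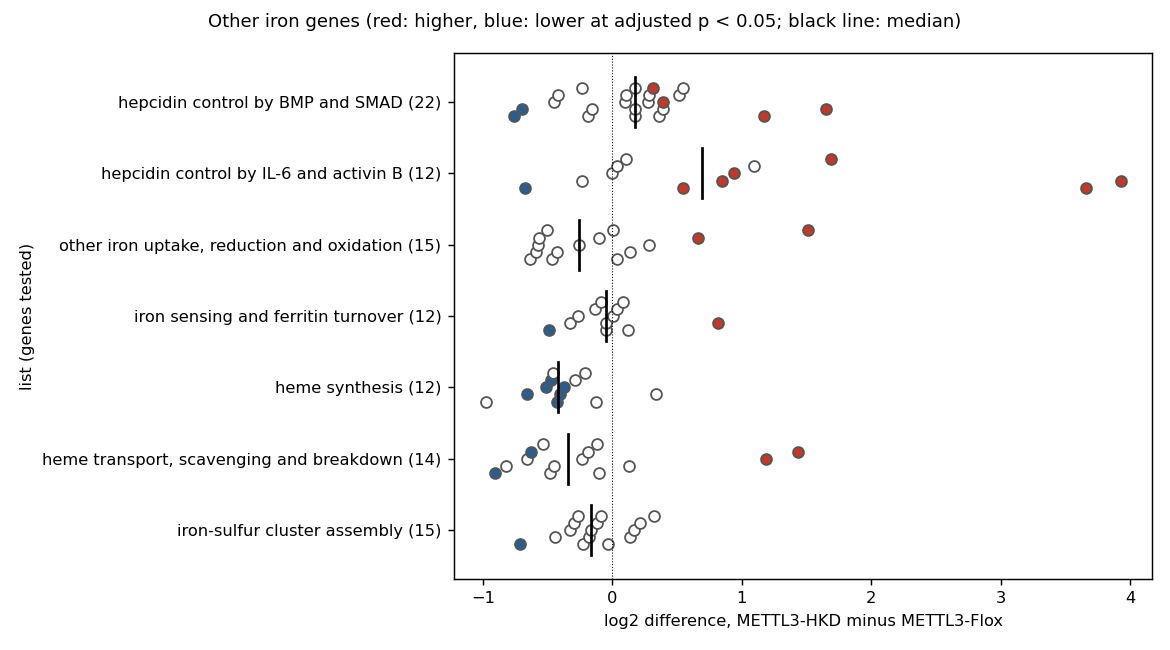
Differences of 102 further iron and heme genes between METTL3-HKD and METTL3-Flox livers on the log2(FPKM + 0.1) scale, with 1 point per gene, a row per list and the list median as a black line. Red marks genes called higher, blue genes called lower and white genes not called, and the vertical offset within a row has no meaning. The genes of IL-6 and activin B signalling have a median of 0.70 and those of heme synthesis a median of -0.42, with 6 genes called lower and 0 called higher in the latter.

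The surface partners of Tfr2 and Hfe and the targets of their pathway belong to a list of bone morphogenetic protein and SMAD genes. Of its 22 tested genes, 4 were called higher and 2 lower, against 9.05% and 6.63% of all genes tested, with a median of 0.18. Hemojuvelin, the coreceptor that hepatocytes need to answer to BMP6, is encoded by Hjv, listed under its older symbol Hfe2. It measured 22.6, 24.7, 38.8 and 30.4 FPKM in METTL3-HKD mice 1 to 4 and 46.0, 44.4, 60.3 and 43.7 FPKM in METTL3-Flox mice 1 to 4. All METTL3-HKD livers were below, as for Tfr2 and Hfe, and the Hjv difference was -0.76 (SE 0.18, adjusted p = 0.0257, called in 13 of 16 alternatives). Id1, a direct target of the pathway, measured 11.8, 8.40, 10.1 and 17.6 FPKM in METTL3-HKD mice 1 to 4 and 4.85, 5.12, 3.12 and 2.14 FPKM in METTL3-Flox mice 1 to 4. All METTL3-HKD livers were above, and the Id1 difference was 1.65 (SE 0.31, adjusted p = 0.0115), called in all 16 alternatives. Id1 and Hamp, both targets of SMADs, ran apart in METTL3-HKD livers 1 and 2, where Id1 was above and Hamp below every METTL3-Flox liver. The targets Smad7 (0.52, adjusted p = 0.0614), Smad6 (0.10, 0.648) and Atoh8 (0.27, 0.388) did not pass the test.

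Of the other genes of that list, Fgl1, a secreted antagonist of bone morphogenetic proteins, was called lower (-0.70, adjusted p = 0.0250, in 10 of 16 alternatives). Smad5 (0.39, 0.0195, in 12 of 16 alternatives), Smad4 (0.32, 0.0396, in 6 of 16 alternatives) and the sulfatase gene Sulf1 (1.17, 0.0347, in 8 of 15 alternatives) were called higher. The ligand genes Bmp2 (-0.45, adjusted p = 0.123) and Bmp6 (-0.19, 0.494) and the hemojuvelin protease gene Tmprss6 (-0.42, 0.0763) were not called, and Bmp6 shares 5.74% of its exon bases with the more abundant Txndc5 on the opposite strand. Erfe, the erythroblast hormone that lowers Hamp, was under the minimum for the test, with 0 to 8 reads in METTL3-HKD livers and 0 in each METTL3-Flox liver.

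Of 12 genes of IL-6 and activin B signalling, the inflammatory inputs to Hamp, 6 were called higher and 1 lower. Among all genes tested, 9.05% were called higher and 6.63% lower. Il6 measured 2.85, 0.646, 0.410 and 3.92 FPKM in METTL3-HKD mice 1 to 4, and 0, 0.0765, 0 and 0 FPKM in METTL3-Flox mice 1 to 4 (adjusted p = 0.0102). The 4 METTL3-HKD livers held 363 Il6 reads and the 4 METTL3-Flox livers 3, a ratio of 99.2 after library scaling with an exact 95% counting interval of 33.7 to 483. Il6 was highest in METTL3-HKD livers 1 and 4, whereas Hamp was high in livers 3 and 4 and Hamp2 highest in liver 4. Il6ra, the IL-6 receptor of hepatocytes, measured 5.99, 4.86, 6.73 and 5.85 FPKM in METTL3-HKD mice 1 to 4 and 8.82, 9.97, 8.997 and 9.60 FPKM in METTL3-Flox mice 1 to 4, a difference of -0.67 (SE 0.11, adjusted p = 0.00821) that was called in all 16 alternatives. Il1b (3.93, adjusted p = 0.00381), the activin B subunit gene Inhbb (1.69, 0.0137), the receptor subunit gene Il6st (0.55, 0.0242), Jak2 (0.84, 0.0244) and Lepr (0.94, 0.0268) were called higher, Il1b and Inhbb in 16, Il6st in 12, Jak2 in 11 and Lepr in 9 of 16 alternatives. The neutrophil markers moved with the same groups, 7 of 8 called higher and their sum at 330 to 1615 FPKM against 12.9 to 44.5 FPKM, and METTL3-HKD liver 1, highest in that sum, also had the highest Il1b, 69.7 FPKM. Their part in the higher Il6, Il1b and other genes of this list was not tested. Stat3, known to bind the STAT site of Hamp, had a mean of 27.2 FPKM in both groups (-0.00, 95% interval -0.18 to 0.18, adjusted p = 0.990). The STAT3 target Socs3 had means of 47.7 FPKM in METTL3-HKD and 21.6 FPKM in METTL3-Flox livers (1.09, adjusted p = 0.0643, called higher in 6 of 16 alternatives). Its groups overlapped only through METTL3-Flox liver 1, at 34.5 FPKM. The activity of STAT3 protein was not measured.

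**Figure D5:**
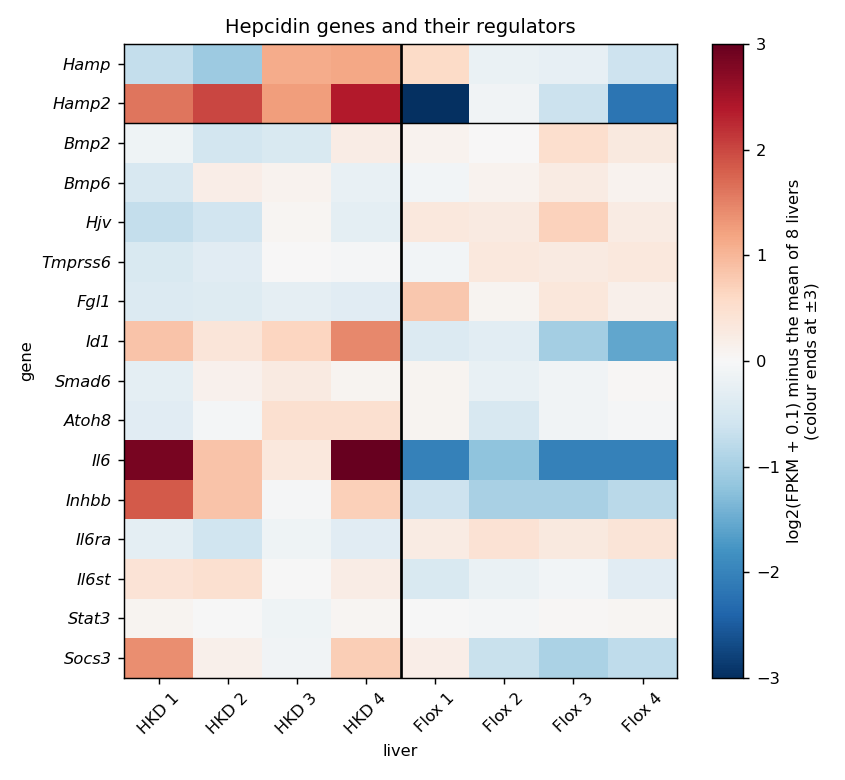
Hamp, Hamp2 and 14 regulators in each liver, with METTL3-HKD livers left of the vertical line and METTL3-Flox livers right of it. Colour gives log2(FPKM + 0.1) minus the mean of the 8 livers, red above and blue below, with the scale ending at 3 in either direction. Hamp is red in METTL3-HKD livers 3 and 4 and blue in METTL3-HKD livers 1 and 2, whereas Hamp2, Id1 and Il6 are red in all 4 METTL3-HKD livers and Il6ra is blue in them.

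Beside the transferrin route of Trf and Tfrc, 15 genes of iron uptake, reduction and oxidation were tested, with a median of -0.25. By limma, 2 were called higher and 0 lower, against 9.05% and 6.63% of all genes tested. With a lower level, 2 genes had an unadjusted p under 0.05 and 1 was called by voom. The metal importer gene Slc39a8 (0.66, adjusted p = 0.00937) and the metalloreductase family gene Steap1 (1.51, 0.0179) were called higher. Slc39a14, the hepatocyte importer of iron that is not bound to transferrin, had 0.01 (adjusted p = 0.982), Cp 0.04 (0.917), Steap4 0.13 (0.806) and Lcn2 -0.51 (0.372).

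Of 12 genes of iron sensing and ferritin turnover, a list that also holds iron-sulfur proteins, 1 was called higher and 1 lower, with a median of -0.05. These counts were near the shares of all genes tested, 9.05% higher and 6.63% lower. Fbxl5, the iron-sensing subunit that has iron regulatory protein 2 degraded, was called higher (0.82, SE 0.18, adjusted p = 0.0188), and the mitochondrial membrane gene Cisd1 lower (-0.49, 0.0373, in 7 of 16 alternatives). Aco1 and Ireb2, which encode iron regulatory proteins 1 and 2, had -0.33 (adjusted p = 0.0506) and 0.08 (0.655), and Ncoa4, the receptor that brings ferritin to the lysosome, had 0.04 (0.833).

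Of 12 heme synthesis genes tested, 6 were called lower and 0 higher by limma, with a median of -0.42 against -0.41 for the hepatocyte markers. The shares of all genes tested were 6.63% lower and 9.05% higher. With a higher level, 1 gene had an unadjusted p under 0.05 and 0 were called by voom. The genes called lower included Alad (-0.51, adjusted p = 0.0160), Abcb10 (-0.66, 0.0239), Fech (-0.38, 0.0343), Ppox (-0.47, 0.0407) and Urod (-0.41, 0.0456), called in 15, 11, 7, 4 and 4 of 16 alternatives. Ppox shares 17.5% of its exon bases with B4galt3 on the opposite strand. Alas1, the rate-limiting enzyme of heme synthesis in liver, had -0.21 (adjusted p = 0.690).

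Of 14 tested genes of heme breakdown and transport, which return heme iron to the pool that ferritin stores and ferroportin exports, 2 were called higher and 2 lower, with a median of -0.34. For all genes tested, the shares were 9.05% higher and 6.63% lower. Hmox1, the inducible heme oxygenase, measured 79.6, 48.8, 48.9 and 52.5 FPKM in METTL3-HKD mice 1 to 4 and 28.4, 17.6, 21.9 and 16.96 FPKM in METTL3-Flox mice 1 to 4. All METTL3-HKD livers were above, with liver 1 the highest as for Fth1, and the Hmox1 difference was 1.43 (SE 0.21, adjusted p = 0.00529), called in all 16 alternatives. The exporter gene Flvcr1 was called higher (1.19, adjusted p = 0.0115), and Hebp1 (-0.63, 0.0108) and the macrophage receptor gene Cd163 (-0.91, 0.0292, in 9 of 16 alternatives) were called lower, the latter alongside the Kupffer cell markers given with Slc40a1. The plasma scavenger genes Hpx (-0.82, adjusted p = 0.136) and Hp (-0.66, 0.174) were below in every METTL3-HKD liver without passing the test.

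Of 15 tested genes of iron-sulfur cluster assembly, 1 was called lower and 0 higher by limma, with a median of -0.17. Of all genes tested, 6.63% were called lower, a like share, and 9.05% higher. With a higher level, 1 gene had an unadjusted p under 0.05 and 0 were called by voom. The called gene was Fdxr (-0.72, adjusted p = 0.00835), the reductase that supplies electrons for the assembly. The markers of sinusoidal endothelial cells, which supply bone morphogenetic proteins to hepatocytes, had a summed level of 70.3 to 84.1 FPKM in METTL3-HKD livers and 76.4 to 86.9 FPKM in METTL3-Flox livers, with 1 of 8 called lower and 0 higher.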

How the data were processed

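RNA-seq of 8 livers was analysed, 4 of METTL3-HKD and 4 of METTL3-Flox mice, grouped by their labels. The authors deposited FPKM with gene lengths, and the submitters' processing notes name GRCm38 and mm10. The aligner, the counting and its strand setting are not given in the sources used here. FPKM times gene length came out as whole multiples of what a read is worth (tolerance 0.001) for 100% of non-zero values. The library scaling this implies was 1.06 to 1.18 in METTL3-HKD and 0.835 to 0.950 in METTL3-Flox livers. These rebuilt reads gave depth, the floor of 3 reads and the alternatives with voom and reads-on-genes scaling. Floors and counting intervals cover counting error only.

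The test covered genes whose mean reached 0.1 FPKM and used limma 3.58.1 in R 4.3.3 (lmFit, eBayes with trend) on log2(FPKM + 0.1), two-sided, with Benjamini-Hochberg adjustment over all of them. Permutation tests enumerated all 70 arrangements of the livers, two-sided. Tested on simulated data for this comparison over 16644 genes, the method called 176 of 200 changed genes and 10 unchanged ones. The changed genes were drawn from well-covered genes, with changes larger than those of Tfr2, Hfe and Slc40a1 and the same spread for every gene. The simulation therefore does not give the power for changes of that size, for genes of few reads such as Hamp2 or for genes as variable as Hamp. The 10 genes, the lists and the named genes were chosen with earlier results of these data known. Genes named from the lists were all called genes where a list had 6 or fewer, otherwise the 3 of smallest adjusted p in each direction, with a set of known regulators whatever their call. Il6st, Jak2 and Lepr fall outside this rule and were named after their values were seen. Alternatives changed the pseudocount (1 FPKM), the minimum (1 FPKM or none), the scaling, the model of the spread, the trend, the weights and the replicate block, or left out each liver. Some single genes of the lists are not reported here.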

Additional observations from a re-analysis of the deposited data

How the results depend on the processing

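Of the 10 iron genes, Trf, Tfrc, Tfr2 and Hfe kept their direction and their side of the threshold in all 16 alternatives. Hamp ranged from -0.11 to 0.64 as livers were left out, and Ftl1 from -0.13 to 0.051 and Slc11a2 from -0.22 to 0.0098. With the reads-on-genes scaling, which moved the median of all genes from -0.00 to 0.20, Ftl1 went to 0.17 and Slc11a2 to 0.089, both below that median. With array quality weights, Ftl1 went to 0.036. The number of iron genes called higher was 2 with that scaling and with voom, where Fth1 was added, and 0 to 1 as livers were left out. For the further iron genes, the number called lower was 6 with that scaling, and leaving out livers gave 9 to 16 called higher and 4 to 14 called lower. Over all genes, 682 were called lower with no minimum level, and leaving out livers gave 747 to 1659 called higher and 355 to 1148 called lower. The cause of these shifts was not tested, nor was the part of the smaller number of livers in the last case.

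No pairing of the livers by replicate number was seen, as the deviations of same-numbered livers correlated at 0.07, -0.08, -0.01 and -0.03. Such values cannot exclude a pairing of small effect. The paper obtained both genotypes from the same litter, and the labels do not say which mice were littermates. With the replicate block, 8 further iron genes were called lower, as against 13 without it, and over all genes 971 were called higher and 645 lower. The counts of the 10 iron genes were the same with the block. A count of few reads limits Hamp2, Il6 and Erfe in METTL3-Flox livers.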
